A study of Rattus norvegicus with 50 samples.

Results

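The proteasome genes described here are the 40 genes, of 13438 measured, whose symbol starts with Psma, Psmb, Psmc, Psmd or Psme followed by a number. A gene entered when a probe set on the array carried its symbol alone, and its brightest probe set over all 50 arrays was used. Of the 40 genes, 38 code for a subunit, activator or assembly chaperone of the proteasome. The other 2, Psmc3ip and Psme3ip1, are named for partners of proteasome proteins and are not subunits. All 40 lay in the brighter part of the array: the dimmest had a mean log2 intensity of 7.57, the 57.4th percentile of all genes.

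The proteasome degrades proteins tagged with ubiquitin. Its 20S core is a barrel of alpha and beta rings whose beta subunits Psmb5, Psmb6 and Psmb7 cut the substrate, and a 19S cap of ATPases, scaffold and lid subunits unfolds the protein and feeds it in. Interferon can replace the catalytic subunits by Psmb8, Psmb9 and Psmb10, which form the immunoproteasome and cut peptides suited to loading on MHC class I molecules. Immune cells carry immunoproteasomes without induction, so a lung sample holds both forms.

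Gene expression was measured in distal airway and alveolar tissue from the right caudal lobe of male Fischer 344 rats, received at 7 to 8 weeks of age. The rats breathed an aerosol of nickel subsulfide (Ni3S2), a nickel ore component and lung carcinogen in rats, for 6 hours daily and 5 days weekly. The concentrations were 0.04 mg/m3 (0.03 mg of nickel), 0.08 mg/m3 (0.06 mg of nickel), 0.15 mg/m3 (0.11 mg of nickel) and 0.60 mg/m3 (0.44 mg of nickel), and controls breathed 0 mg/m3. Exposure lasted 1 week (5 days) or 4 weeks (20 days), which gave 10 groups of 5 arrays with 1 rat per array, so n = 5 in each group. The 5 rats of a group were those with the best RNA among the 8 set aside for expression, and no group carried a genetic change. Levels are given as log2 intensity and changes as the difference of 2 group means on that scale, with the standard error (±) from limma. A change is called at an adjusted p under 0.05.

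The promoters of the genes on which the 4-week result turns are shown first, because Psmb8, Psmb9 and the peptide transporter genes Tap1 and Tap2 lie side by side on chromosome 20 in the order Tap2, Psmb8, Tap1, Psmb9. Each sequence runs from 250 bases before to 50 bases after the annotated start (RefSeq, GRCr8), read along the gene's strand. Capitals mark matches, on either strand, to GAAA and GAAA with any 2 bases between them, the core of the interferon-stimulated response element (ISRE).
Psmb8, chr20:4656982-4657281, minus strand: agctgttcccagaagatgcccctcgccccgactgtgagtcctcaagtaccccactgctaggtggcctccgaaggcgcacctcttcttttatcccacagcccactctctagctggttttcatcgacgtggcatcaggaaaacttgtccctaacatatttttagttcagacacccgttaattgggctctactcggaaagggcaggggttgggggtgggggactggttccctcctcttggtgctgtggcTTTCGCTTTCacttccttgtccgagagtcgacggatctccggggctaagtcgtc
Psmb9, chr20:4668750-4669049, plus strand: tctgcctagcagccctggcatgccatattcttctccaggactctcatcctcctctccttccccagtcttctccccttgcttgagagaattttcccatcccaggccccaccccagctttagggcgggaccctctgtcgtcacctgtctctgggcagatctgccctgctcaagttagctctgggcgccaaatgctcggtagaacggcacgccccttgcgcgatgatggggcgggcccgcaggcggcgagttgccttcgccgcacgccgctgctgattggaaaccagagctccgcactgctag
Psmb10, chr19:50743243-50743542, minus strand: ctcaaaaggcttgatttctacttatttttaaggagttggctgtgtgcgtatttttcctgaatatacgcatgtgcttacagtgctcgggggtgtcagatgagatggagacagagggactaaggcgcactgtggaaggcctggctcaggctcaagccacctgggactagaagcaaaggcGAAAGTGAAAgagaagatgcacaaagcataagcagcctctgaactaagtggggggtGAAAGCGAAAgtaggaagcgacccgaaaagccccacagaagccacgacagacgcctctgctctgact
Tap1, chr20:4668494-4668793, minus strand: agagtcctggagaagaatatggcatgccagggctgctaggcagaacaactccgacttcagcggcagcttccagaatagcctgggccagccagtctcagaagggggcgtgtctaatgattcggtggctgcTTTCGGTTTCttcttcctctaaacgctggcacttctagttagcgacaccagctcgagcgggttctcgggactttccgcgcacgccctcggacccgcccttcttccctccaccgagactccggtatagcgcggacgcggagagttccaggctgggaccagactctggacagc
Psmb8 held 1 match, which began 4 bases before the start and ran across it. Psmb10 held 2, beginning 73 and 17 bases before the start, and Tap1 held 1, beginning 121 bases before. The Psmb9 window held none and overlaps the Tap1 window, since these genes are transcribed away from each other. Over all 33469 promoters of this length, 3.92% held the letters, against 5 of the 36 member promoters in the table (13.9%): Psma4, Psmb3, Psmb8, Psmb10 and Psmd7.

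A pair of promoters from constitutive subunits is shown for the motif TGACNNNGC, the core of the antioxidant response element through which NRF1 and NRF2 act on proteasome genes. Psmb5, a catalytic subunit, and Psmd1, a scaffold of the cap, went in opposite directions after 1 week at 0.60 mg/m3 against the controls of that time.
Psmb5, chr15:32047330-32047629, minus strand: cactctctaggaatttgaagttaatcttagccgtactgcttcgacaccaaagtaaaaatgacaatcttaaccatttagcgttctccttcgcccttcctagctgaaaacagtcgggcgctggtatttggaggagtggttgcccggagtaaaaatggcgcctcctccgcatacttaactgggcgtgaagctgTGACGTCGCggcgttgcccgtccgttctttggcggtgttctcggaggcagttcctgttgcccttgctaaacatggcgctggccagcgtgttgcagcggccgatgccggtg
Psmd1, chr9:94157721-94158020, plus strand: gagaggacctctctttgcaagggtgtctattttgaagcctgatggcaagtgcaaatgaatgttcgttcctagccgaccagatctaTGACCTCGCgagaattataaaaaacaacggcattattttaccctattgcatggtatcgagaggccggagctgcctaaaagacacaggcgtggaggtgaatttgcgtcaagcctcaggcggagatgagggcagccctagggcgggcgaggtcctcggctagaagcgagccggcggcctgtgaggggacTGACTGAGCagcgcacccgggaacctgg
The Psmb5 window held 1 match, beginning 60 bases before the start. In the Psmd1 window there were 2 matches, beginning 165 bases before and 22 bases after the start. These letters occur in 12.1% of all promoters and in 7 of 36 member promoters (19.4%). Whether they bear on the changes of Psmb5 or Psmd1 was not tested. Matches on either strand were counted, the motifs can overlap, and a match describes letters, not a binding site.

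Arrays of the 1-week control and 0.04 mg/m3 groups stood apart from the others, except for part of the 0.08 mg/m3 group at 1 week. On the first principal component of the genes that are no members, which held 63.5% of the variance, the 1-week controls lay at -57.9 ± 12.2 (SD, n = 5) and the 4-week controls at 31.3 ± 3.02 (SD, n = 5). The 1-week arrays at 0.15 and 0.60 mg/m3 lay between them, at 8.53 ± 6.76 and 2.50 ± 3.71 (SD, n = 5). The 0.08 mg/m3 group at 1 week spread from -64.6, within the range of the 1-week controls (-75.1 to -43.5), to 5.45. Unexposed rats thus differed between the times by more than rats at 0.15 or 0.60 mg/m3 did, and each comparison with the 1-week controls below rests on arrays that stand apart in this way. Lung epithelial genes were high on all arrays: the surfactant gene Sftpc lay between 13.3 and 13.6.

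After 4 weeks at 0.60 mg/m3 the immunoproteasome subunits Psmb8 and Psmb9 rose, and the constitutive proteasome showed few called changes. In simulated data this comparison called 55% of genes changed by 0.4, so a gene without a call may still have changed. The simulation changed far fewer genes than were called in the data, so the 55% need not hold for the data. Psmb8 (beta 5i, the inducible counterpart of Psmb5) had log2 intensities of 9.59, 9.24, 9.37, 9.35 and 9.32 in the 4-week controls and of 9.84, 9.97, 9.88, 9.69 and 10.20 at 0.60 mg/m3. All 5 exposed arrays lay above all 5 controls. The change was 0.54 ± 0.11, 1.46-fold, with an adjusted p of 0.000156. In bulk tissue, more cells of a type that carries Psmb8 and more Psmb8 RNA per cell cannot be told apart.

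Psmb9 (beta 1i, the counterpart of Psmb6) lay at 10.53, 10.14, 10.38, 10.31 and 10.28 in the controls and at 10.80, 10.78, 10.72, 10.52 and 11.01 at 0.60 mg/m3. Only the lowest exposed array fell below the highest control. Its change was 0.44 ± 0.10, 1.35-fold, adjusted p 0.00162. Psmb10 (beta 2i, the counterpart of Psmb7) lay at 8.75, 8.57, 8.70, 8.79 and 8.62 in the controls and at 8.89, 8.98, 8.94, 8.82 and 9.13 after exposure. Its groups did not overlap either, but the change of 0.27 ± 0.12 was not called (adjusted p 0.139). It was called with array weights (adjusted p 0.00693) and in a fit to the compared arrays alone (adjusted p 0.013).

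**Figure D1:**
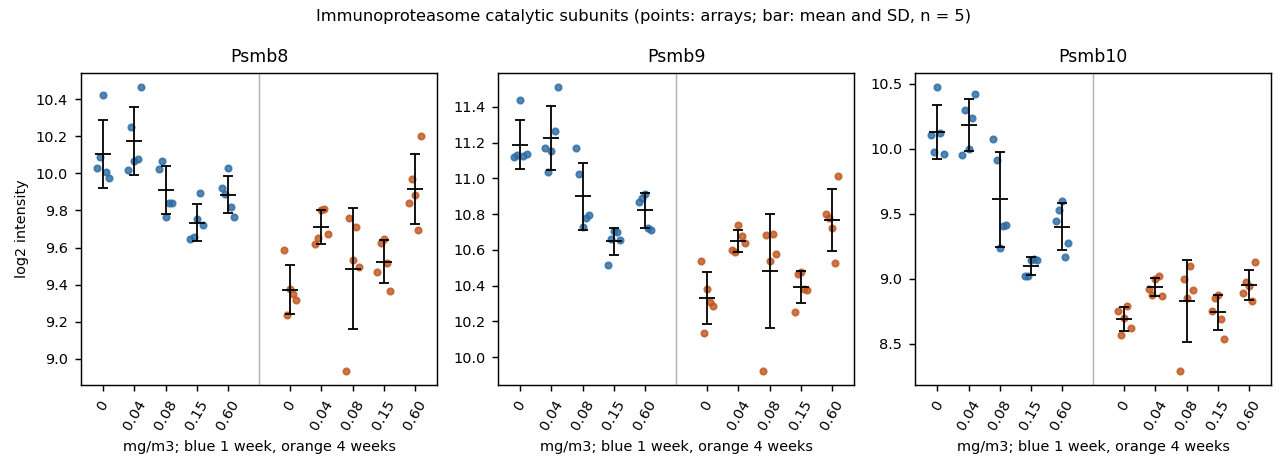
Log2 intensity of Psmb8, Psmb9 and Psmb10 in each array (points) with group mean and SD (n = 5), by Ni3S2 concentration, at 1 week (blue) and 4 weeks (orange). At 4 weeks the 0.60 mg/m3 arrays of Psmb8 all lie above the controls, and replicate 1 of the 0.08 mg/m3 group is the lowest point of each gene.

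The constitutive counterparts of these subunits were not called. Psmb5 changed by -0.06 ± 0.07 (adjusted p 0.584) and Psmb7 by -0.05 ± 0.10 (adjusted p 0.765) at 0.60 mg/m3 after 4 weeks, and both genes overlapped with the controls. Psmb6 was not analysed here, since no probe set carried its symbol alone. Psme1, the alpha subunit of the interferon-inducible cap PA28, changed by 0.10 ± 0.07 (adjusted p 0.328), and its partner Psme2 was not analysed here. Psme4, the nuclear activator PA200, changed by 0.36 ± 0.14 (adjusted p 0.0609) on the probe set used. Its other probe sets changed by -0.03 ± 0.13 and 0.29 ± 0.14, without a call.

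Of the 40 members, 3 were called higher and 1 lower in this comparison, 10% of the members against 17.4% of all genes (9.47% higher and 7.9% lower). The median change was 0.01 for the members and -0.00 for all genes, so the share of members called was below the background. After arrays were centred on their median 2 members were higher and 3 lower, with array weights 7 and 5, and in a fit to the compared arrays alone 5 and 2. The share of all genes called above belongs to the fit without these settings. These 3 counts therefore do not show whether members moved apart from other genes. All 5 exposed arrays lay above all 5 controls for 5 members and below them for 1, where this held for 10.5% and 9.03% of all genes. Among the 35 subunit-class genes other than Psmb8, Psmb9 and Psmb10, changes ran from -0.29 to 0.36 and the called genes were Psmd14 and Psmc5. Psmd14, the deubiquitinating enzyme of the lid, lay between 9.64 and 9.87 in the controls and between 9.92 and 10.03 after exposure, a change of 0.21 ± 0.08 (adjusted p 0.0423). Psmc5, an ATPase of the base, lay between 9.21 and 9.51 in the controls and between 9.03 and 9.20 after exposure, a change of -0.29 ± 0.08 (adjusted p 0.00609). Neither gene overlapped with the controls. The call of Psmd14 ended when arrays were centred on their median (0.17, adjusted p 0.117) or quantile normalized (0.21, adjusted p 0.0526), and in 9 of 10 omissions of 1 array. Psmb8, Psmb9 and Psmc5 were called in all 10 omissions, with changes from 0.47 to 0.60, from 0.38 to 0.50 and from -0.34 to -0.26.

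**Figure D2:**
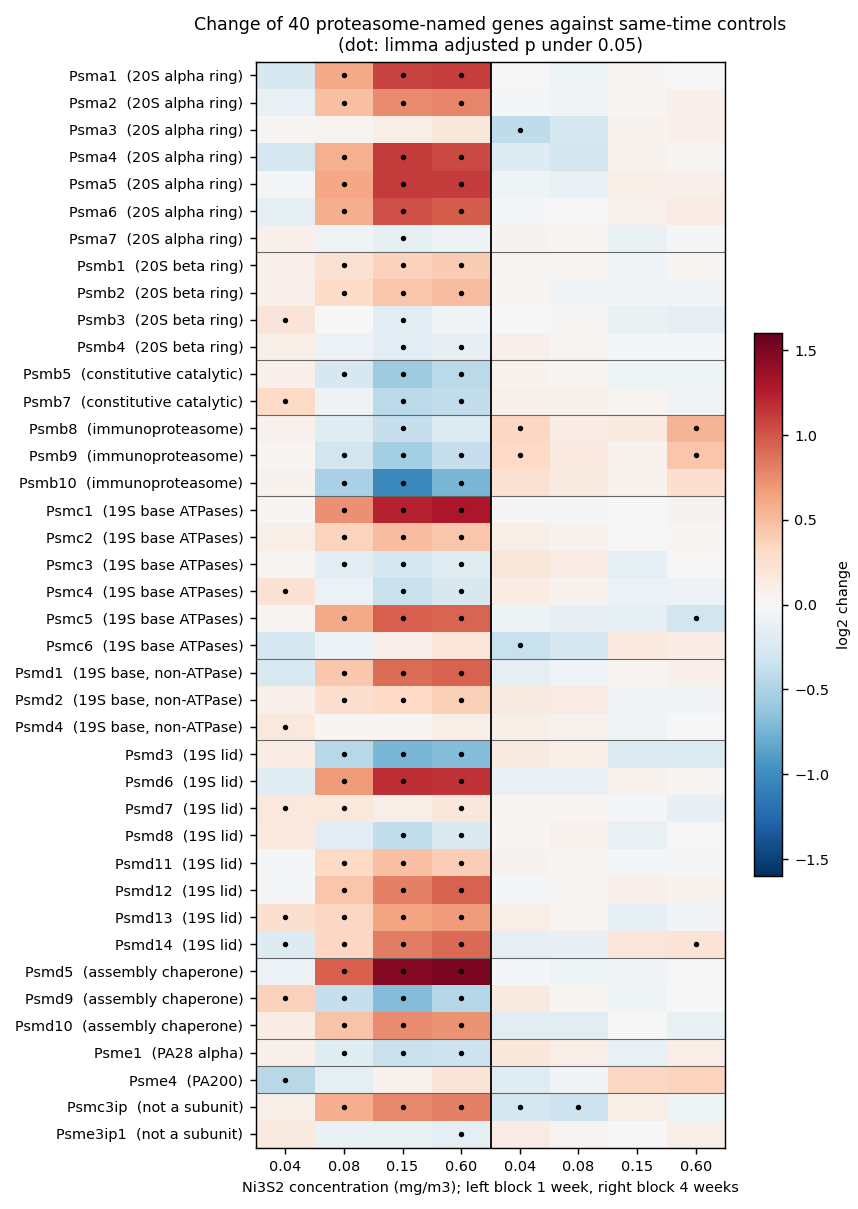
Log2 change (colour) of the 40 members (rows, grouped by place in the complex) against controls of the same time, for the 4 concentrations at 1 week (left block) and 4 weeks (right block). Dots mark changes called by limma: 33 members at 0.60 mg/m3 at 1 week and 4 at 4 weeks.

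Genes of the pathways around the immunoproteasome were called at the same time and concentration, where 9.47% of all genes were higher and 7.9% lower. The lists, like the members, were chosen with earlier results of these data known. Of 14 measured genes on a list for MHC class I antigen processing, which includes the CD1 gene Cd1d1, 9 rose and 0 fell, with a median change of 0.31. They included Tapbp (0.61 ± 0.13), which bridges MHC class I to the peptide transporter, Tap1 (0.44 ± 0.15), a chain of that transporter, and the class I genes RT1-CE5 (0.44 ± 0.11) and RT1-S3 (0.42 ± 0.11). RT1 genes belong to a family of near-identical copies, and their probe sets may share signal. Of 25 measured interferon response genes, 17 rose and 0 fell, with a median of 1.05. The largest of these were the chemokines Cxcl10 (2.75 ± 0.29) and Cxcl11 (2.43 ± 0.31) and the antiviral genes Ifit3 (2.27 ± 0.32) and Mx1 (2.24 ± 0.27). The changes of Psmb8 and Psmb9 were smaller than these and close in size to those of the MHC class I genes.

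The lists of other proteasome genes held no call at 4 weeks in limma. Of 19 further subunits, chaperones and shuttle factors, 0 were called at 0.60 mg/m3 and 2 had an unadjusted p under 0.05. Of 8 genes that control proteasome transcription through NRF1, 0 were called and 1 had an unadjusted p under 0.05. Of 2 ubiquitin-activating enzyme genes measured, 0 were called and 0 had an unadjusted p under 0.05.

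**Figure D3:**
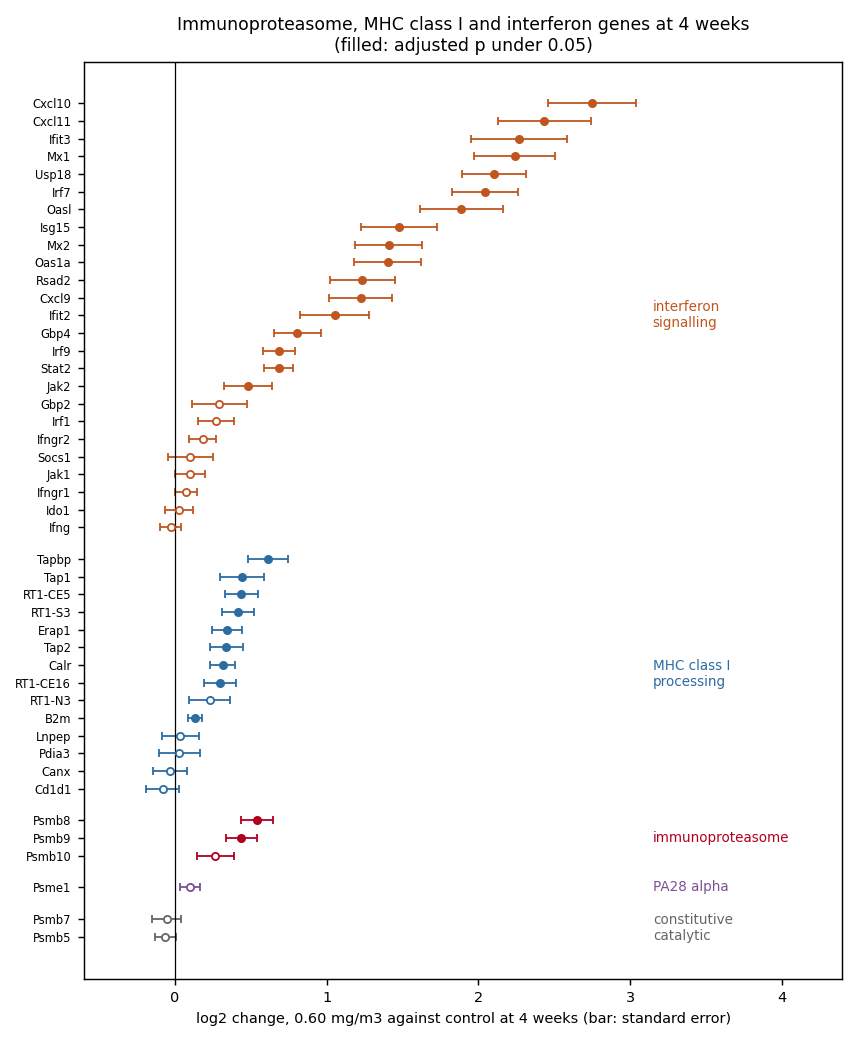
Log2 change with standard error at 0.60 mg/m3 after 4 weeks for catalytic subunits, PA28 alpha, MHC class I processing genes and interferon genes (filled: called). Psmb8 at 0.54 and Psmb9 at 0.44 lie among the MHC class I genes, Psmb5 and Psmb7 near 0, and the interferon genes reach 2.75 at Cxcl10.

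Markers of immune cells that carry immunoproteasomes moved in these samples too. Of 9 genes of the dendritic cell and MHC class II list, 8 rose at 0.60 mg/m3 after 4 weeks, and the mean level of the list ran from 8.85 to 9.13 against 8.31 to 8.59 in the controls. Of 11 T cell genes 6 rose, with list levels of 6.16 to 6.84 against 5.74 to 6.06. Of 8 natural killer and cytotoxic cell genes 1 rose and 7 fell, and of 5 B cell genes 0 were called while 2 had an unadjusted p under 0.05. The B cell list level ran from 6.79 to 7.29 against 6.27 to 6.66 in the controls, without overlap. All 6 genes of the dividing cell list rose, with list levels of 5.98 to 6.50 against 4.93 to 5.20. The part of these cells in the rise of Psmb8 and Psmb9 was not tested.

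At lower concentrations the 4-week levels of the immunoproteasome were not ordered by concentration. At 0.04 mg/m3 Psmb8 lay at 9.62, 9.65, 9.80, 9.81 and 9.67 and Psmb9 at 10.60, 10.59, 10.74, 10.68 and 10.64, above all controls in both genes. The changes were 0.34 ± 0.11 (adjusted p 0.0284) and 0.32 ± 0.10 (adjusted p 0.0324). Psmb10 also lay above all controls, with a change of 0.25 ± 0.12 that was not called (adjusted p 0.183). The calls of Psmb8 and Psmb9 ended when arrays were centred on their median (adjusted p 0.076 and 0.0842). Psmb8 was called in 5 and Psmb9 in 4 of 10 omissions of 1 array, and without replicate 2 of the 4-week controls the changes were 0.30 (adjusted p 0.0924) and 0.27 (adjusted p 0.12). Replicate 3 at 0.04 mg/m3 had a skeletal muscle marker level of 7.99, against 4.66 to 5.05 in the rest of its group. Neither gene was called without that array, nor without replicate 4 of its group or replicate 2, 4 or 5 of the controls.

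At 0.15 mg/m3 Psmb8 lay at 9.47, 9.62, 9.65, 9.52 and 9.37, within reach of the controls, and its change was 0.15 ± 0.11 (adjusted p 0.594). Psmb9 changed by 0.06 ± 0.10 (adjusted p 0.885). The 0.08 mg/m3 arrays of Psmb8 lay at 8.94, 9.76, 9.53, 9.71 and 9.50, a change of 0.11 ± 0.11 (adjusted p 0.558), and those of Psmb9 at 9.92, 10.68, 10.54, 10.69 and 10.58, a change of 0.15 ± 0.10 (adjusted p 0.381). Replicate 1 was the lowest array in both genes. That array had a skeletal muscle marker level of 11.3, against 4.27 to 4.99 in the other 4, and the lowest dendritic and T cell levels of its group, 8.38 and 5.65. Without it Psmb8 changed by 0.25 (adjusted p 0.0824) and Psmb9 by 0.29, which was then called (adjusted p 0.029).

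The highest exposure was also set directly against the next one. At 4 weeks Psmb8 was higher at 0.60 than at 0.15 mg/m3 by 0.39 ± 0.11 (adjusted p 0.027) and Psmb9 by 0.38 ± 0.10 (adjusted p 0.0297), with no overlap between the 5 and 5 arrays of either gene. Psme1 differed by 0.22 ± 0.07 without a call (adjusted p 0.0574), and the 2 called genes made up 5% of the members against 2.87% of all genes (1.91% higher and 0.953% lower). Psmb8 was called in 4 and Psmb9 in 3 of 10 omissions of 1 array. Without replicate 5 at 0.60 mg/m3 the differences were 0.32 and 0.32, with adjusted p of 0.155 and 0.154. At 0.04 mg/m3 the dendritic cell and MHC class II list ran from 8.81 to 9.01 with 7 of 9 genes called higher, at 0.15 mg/m3 from 8.49 to 8.70 with 0 of 9 called. The MHC class I list had 1 of 14 genes called at 0.04 and 0 of 14 at 0.15 mg/m3, and the interferon list 2 of 25 and 4 of 25, all higher. Over all genes 8.29% were higher at 0.04 and 1.92% at 0.15 mg/m3. The MHC class I and interferon counts at 0.04 mg/m3 were near that share. At 0.04 mg/m3 9 of 11 T cell and 5 of 5 B cell genes were higher, and the heart muscle list ran from 10.2 to 10.8 against 7.96 to 9.12 in the controls. The part of these cells in the Psmb8 and Psmb9 values was not tested.

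The number of members called after 4 weeks at the lower concentrations depended on the fit. Shares of all genes called are given for the fit without added settings only. Counts under array weights, median centring or the compared arrays alone thus do not show whether members moved apart from other genes. At 0.04 mg/m3 2 members were called higher and 3 lower, 12.5% against 12.9% of all genes (8.29% higher and 4.61% lower), and 0 higher and 5 lower after median centring. With array weights 11 were higher and 9 lower, and in a fit to the compared arrays alone 6 and 6. The falls were Psma3 (-0.41 ± 0.12), a subunit of the alpha ring, Psmc6 (-0.36 ± 0.12), an ATPase of the base, and Psmc3ip (-0.28 ± 0.10), a recombination factor. At 0.08 mg/m3 Psmc3ip alone was called, with a change of -0.33 ± 0.10, and 2.5% of members compares with 8.54% of all genes (5.67% higher and 2.87% lower), while array weights gave 4 higher and 8 lower. At 0.15 mg/m3 0 members were called in limma against 3.5% of all genes (1.92% higher and 1.58% lower), 5 had an unadjusted p under 0.05, and limma with array weights called 2 higher and 3 lower. Arrays of exposed rats lay wholly above the controls for 7 members at 0.04, 2 at 0.08 and 2 at 0.15 mg/m3, against 12.3%, 3.99% and 4.61% of all genes. They lay wholly below for 3, 3 and 1 members, against 6.82%, 4.2% and 4.49% of all genes.

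After 1 week the picture was different: most proteasome genes were called, and the subunits split. At 0.60 mg/m3 21 members were higher and 12 lower than the 1-week controls, 82.5% of the members against 65.1% of all genes (32.8% higher and 32.3% lower). The median change was 0.30 for the members and -0.01 for all genes, while the median absolute change was 0.44 for the members and 0.43 for all genes. At 0.15 mg/m3 20 were higher and 14 lower, 85% against 67.4% (33.8% and 33.7%). At 0.08 mg/m3 21 were higher and 7 lower, 70% against 48.6% (25.1% and 23.5%). At 0.04 mg/m3 7 were higher and 2 lower, 22.5% against 26.9% (15.1% and 11.8%). After quantile normalization 4 were higher and 5 lower there, where 1670 of all genes were higher and 1660 lower. No member was called between 0.60 and 0.15 mg/m3 in limma, against 0.0149% of all genes (0.00744% higher and 0.00744% lower), although 3 members had an unadjusted p under 0.05, and limma with array weights called 1 member higher. Exposed arrays lay wholly above the controls for 6, 12, 20 and 21 members from 0.04 to 0.60 mg/m3, against 6.69%, 8.89%, 28% and 27.3% of all genes. They lay wholly below for 0, 0, 14 and 10 members, against 4.67%, 4.56%, 27.3% and 26.1% of all genes.

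Alpha ring subunits, which gate the core, were called in 1 direction at 0.60 mg/m3: 5 of 7 rose, 0 fell, and the median was 0.96. Psma5 lay at 9.73, 9.86, 9.73, 9.93 and 9.94 in the 1-week controls and at 11.03, 10.99, 10.94, 10.90 and 10.92 at 0.60 mg/m3, far above every control. Its change was 1.12 ± 0.08 (adjusted p 2.91e-15), close to those of Psma1 (1.10 ± 0.10) and Psma4 (1.06 ± 0.11). At 0.08 mg/m3 Psma5 spread from 9.95 to 10.81 across the 5 arrays, and at 0.04 mg/m3 it lay between 9.76 and 9.86, inside the control range.

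Beta ring subunits did not follow the alpha ring. Of the 4 without an active site, Psmb2 (0.50 ± 0.05) and Psmb1 (0.41 ± 0.05) rose and Psmb4 (-0.13 ± 0.06, adjusted p 0.0447) fell. Both catalytic subunits measured fell at 0.60 mg/m3. Psmb5, which carries the chymotrypsin-like activity, lay at 11.85, 11.78, 11.91, 11.94 and 11.85 in the controls and at 11.53, 11.46, 11.54, 11.34 and 11.29 at 0.60 mg/m3, with no overlap and a change of -0.43 ± 0.07 (adjusted p 3.74e-07). Psmb7, which carries the trypsin-like activity, lay at 9.10, 9.002, 9.11, 9.19 and 9.10 in the controls and at 8.81, 8.63, 8.70, 8.60 and 8.77 after exposure, also with no overlap and a change of -0.40 ± 0.10 (adjusted p 0.000305). At 0.04 mg/m3 Psmb7 lay above all controls instead, with a change of 0.32 ± 0.10 (adjusted p 0.0122) that was called in all 10 omissions of 1 array. Psmd9, a cap chaperone, was also called higher there (0.37 ± 0.12) and lower at 0.60 mg/m3, and Psmd14 was called lower there (-0.21 ± 0.08) and higher at 0.60 mg/m3.

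Psmb9 and Psmb10 fell at 0.60 mg/m3 after 1 week, and Psme1 fell with them. Psmb10 lay at 10.11, 9.98, 10.47, 10.12 and 9.96 in the controls and at 9.44, 9.53, 9.60, 9.16 and 9.27 at 0.60 mg/m3, with no overlap and a change of -0.73 ± 0.12 (adjusted p 1.48e-06). Psmb9 changed by -0.37 ± 0.10 (adjusted p 0.00165) and Psme1 by -0.33 ± 0.07 (adjusted p 2.9e-05). Psmb8 changed by -0.22 ± 0.11 without a call at 0.60 mg/m3 (adjusted p 0.0649) and by -0.37 ± 0.11 with a call at 0.15 mg/m3 (adjusted p 0.00197). In replicate 3 of the controls Psmb8 was 10.42 and Psmb9 11.44, the highest of the group in both, and without it the Psmb8 change at 0.60 mg/m3 was -0.14 (adjusted p 0.265). The dendritic cell and MHC class II list ran from 8.77 to 8.97 at 0.60 mg/m3 against 8.86 to 9.55 in these controls, and the B cell list from 6.85 to 7.34 against 7.03 to 8.82, with 4 of 5 genes called lower, and 3 of 11 T cell genes fell. Of 7 alveolar macrophage genes 5 rose, with list levels of 8.56 to 8.92 against 8.09 to 8.46. Rises were also called for 5 of 6 neutrophil and 3 of 8 monocyte genes. Over all genes 32.8% were higher and 32.3% lower in this comparison, and the T cell and monocyte counts lie near these shares. The dividing cell list ran from 6.47 to 7.33 against 4.64 to 4.99, and the heart muscle list from 8.56 to 9.49 against 4.87 to 9.29. The part of those cells in any 1-week change was not tested.

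Of 17 subunits of the 19S cap 11 rose and 4 fell at 0.60 mg/m3 after 1 week. Of 6 ATPases of the base 3 rose and 2 fell, of 3 other base subunits 2 rose and 0 fell, and of 8 lid subunits 6 rose and 2 fell. Psmc1, an ATPase, lay at 7.72, 8.05, 7.68, 7.77 and 8.17 in the controls and at 9.18, 9.13, 9.17, 9.18 and 9.19 at 0.60 mg/m3, with no overlap and a change of 1.29 ± 0.08. The ATPases Psmc5 and Psmc2 changed by 0.93 ± 0.08 and 0.45 ± 0.05. Among scaffold subunits of the base, Psmd1 changed by 0.95 ± 0.11 and Psmd2 by 0.38 ± 0.06. In the lid, Psmd6 changed by 1.15 ± 0.09, Psmd12 by 0.94 ± 0.09 and the deubiquitinase Psmd14 by 0.90 ± 0.08.

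Chaperones that assemble the cap moved in both directions at 0.60 mg/m3 after 1 week. Psmd5 had 8.00, 8.29, 7.99, 8.14 and 8.42 in the controls and 9.68, 9.63, 9.68, 9.66 and 9.71 at 0.60 mg/m3, the highest change among the members at 1.501 ± 0.09 (adjusted p 1.83e-17). Psmd10 (gankyrin) rose by 0.72 ± 0.07, and Psmd9 changed by -0.46 ± 0.12. Psmc3ip, no subunit, changed by 0.81 ± 0.10, and Psme3ip1 by -0.16 ± 0.07 (adjusted p 0.0454). Psme4 (PA200) changed by 0.21 ± 0.14 without a call (adjusted p 0.185).

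**Figure D4:**
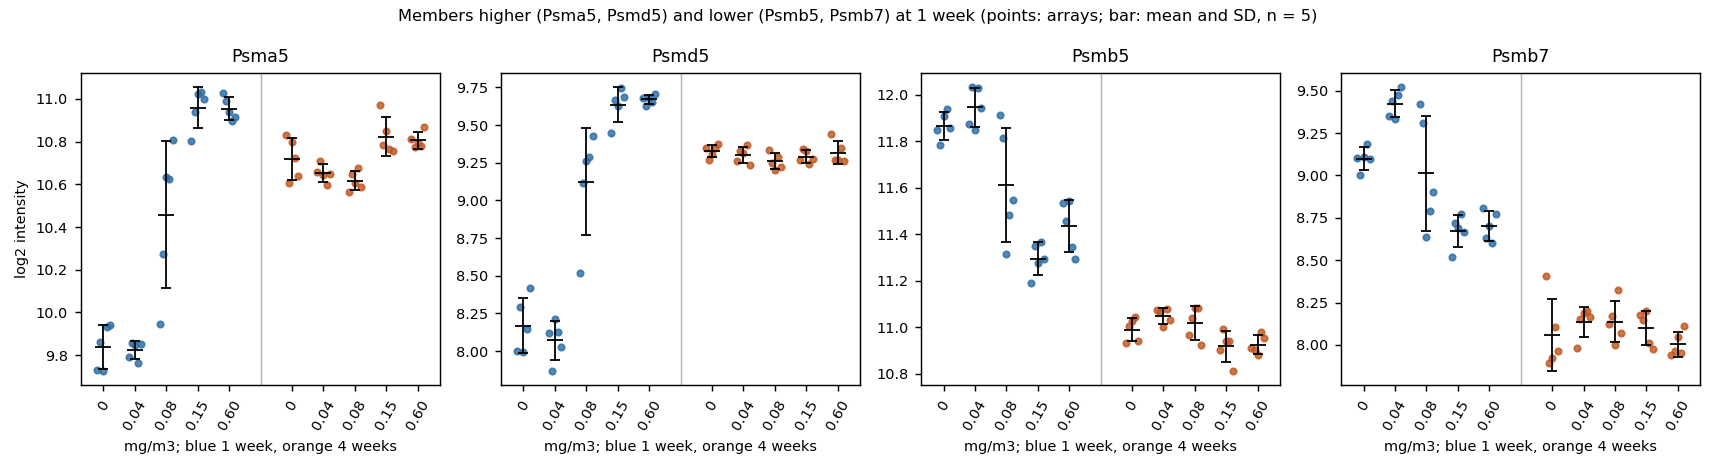
Log2 intensity of Psma5, Psmd5, Psmb5 and Psmb7 in each array (points) with group mean and SD (n = 5), by Ni3S2 concentration, at 1 week (blue) and 4 weeks (orange). The 1-week groups at 0.15 and 0.60 mg/m3 lie nearer to the 4-week groups than the 1-week controls do, and the 4-week groups lie close together.

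Related genes were called in both directions in the same comparison, where 32.8% of all genes were higher and 32.3% lower. Of 19 other proteasome genes, 11 rose and 4 fell, among them the core assembly chaperones Psmg2 (1.20 ± 0.08) and Psmg1 (0.99 ± 0.08), the shuttle factor Rad23b (0.88 ± 0.07) and the ubiquitin receptor Adrm1 (-1.15 ± 0.11). Of 8 genes of the NRF1 list, 5 rose and 2 fell, with Vcp at 1.16 ± 0.09, Sel1l at 1.06 ± 0.09, Ufd1 at 0.90 and Syvn1 at -0.94 ± 0.13, all parts of the route that moves NRF1 out of the endoplasmic reticulum. The ubiquitin-activating enzymes Uba6 (-0.56 ± 0.15) and Uba1 (-0.20 ± 0.07) fell. Of 14 genes on the MHC class I list 6 rose and 6 fell. The chaperone Pdia3 (1.28 ± 0.14) rose, and Tap1 (-0.98 ± 0.15) and Tapbp (-0.95 ± 0.13) fell. Cd1d1 (1.15 ± 0.11), which is on the list but is a CD1 gene and not a classical class I gene, also rose. Of 25 interferon genes 8 rose and 4 fell, with Ifit3 at 1.79 ± 0.32, Rsad2 at 1.67 ± 0.21, Socs1 at -1.16 ± 0.15 and Irf7 at -0.87 ± 0.22. The interferon rises were near the share of all genes and the falls below it.

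Most members also differed between the unexposed rats of the 2 times. Between 4-week and 1-week controls 22 members were higher and 16 lower, 95% against 73.5% of all genes (35.2% higher and 38.2% lower). Psmd5 was higher by 1.16 ± 0.09 and Psma5 by 0.88 ± 0.08 in the 4-week controls, and Psmb10 differed by -1.44 ± 0.12, Psmb7 by -1.04 ± 0.10, Psmb5 by -0.88 ± 0.07, Psmb9 by -0.86 ± 0.10 and Psmb8 by -0.73 ± 0.11. This contrast shares the 1-week controls with the 1-week comparisons above, so their values are given side by side and no agreement between them is counted.

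Set against the 4-week controls, the 1-week groups at 0.15 and 0.60 mg/m3 had far fewer members lower. At 0.60 mg/m3 28 were higher and 2 lower, where 49.4% of all genes were called, and at 0.15 mg/m3 27 were higher and 3 lower, where 42.6% were called. In that setting Psmb8 at 0.60 mg/m3 was higher by 0.51 ± 0.11 and Psmb10 by 0.71 ± 0.12, the opposite side from the comparison with 1-week controls, while Psma5 was higher by 0.23 ± 0.08 and Psmd5 by 0.34 ± 0.09. Exposure time and the rats' age differ in that setting too. A further fit took as covariate the direction along which arrays of the 1-week controls and of 0.04 mg/m3 at 1 week differed among themselves. In that fit 21 members were higher and 1 lower at 0.60 mg/m3, where 44.4% of all genes were called, and 20 higher and 4 lower at 0.15 mg/m3, where 42.1% were called. Calls over all genes were thus fewer too, down from 65.1% and 67.4%. The rises kept their number in that fit and most of the falls lost their call. For the 4-week controls and for this fit, the split of all genes into higher and lower is not given here. Whether the shift toward rises sets members apart from other genes is therefore not shown. At 0.60 mg/m3 Psmb10 was then -0.22 (adjusted p 0.231), Psmb5 -0.11 (adjusted p 0.218) and Psmb9 -0.14 (adjusted p 0.455). Along that direction the 1-week controls lay from -2.20 to -0.78 and the 1-week arrays at 0.60 mg/m3 from -0.28 to 0.13, without overlap. The fit therefore cannot separate this direction from exposure, and it does not show which calls are due to exposure. Why the 1-week controls stand apart was not tested.

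The change at 4 weeks was compared with the change at 1 week in 1 test per gene. At 0.60 mg/m3 9 members had a higher and 21 a lower change at 4 weeks, 75% against 56.7% of all genes (27.7% and 29%), and at 0.15 mg/m3 10 had a higher and 20 a lower one, 75% against 56.8% (27.4% and 29.4%). Psmb8 differed by 0.76 ± 0.15 (adjusted p 2.95e-05), Psmb9 by 0.81 ± 0.15 (adjusted p 8.21e-06) and Psmb10 by 0.99 ± 0.17 (adjusted p 5.41e-06) at 0.60 mg/m3. Psmd5 differed by -1.51 ± 0.13 and Psma5 by -1.03 ± 0.12. Each difference takes in the gap between the 1-week and 4-week controls. The 1-week controls were the higher ones by 0.73 for Psmb8, 0.86 for Psmb9 and 1.44 for Psmb10. Against the 4-week controls, the 1-week arrays at 0.60 mg/m3 were higher by 0.51, 0.49 and 0.71. Those values lie near the 4-week changes of Psmb8 and Psmb9 and above that of Psmb10. Growth of a response with exposure time is not shown by these differences. In the fit with the covariate for differences among 1-week arrays 5 members had a higher and 22 a lower change at 0.60 mg/m3, where 38.2% of all genes were called, and 2 and 20 at 0.15 mg/m3, where 34.7% were called.

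Several probe sets were present for 10 of the members, and in no such gene were 2 probe sets called in opposite directions at 0.60 mg/m3 after 1 week, against 4.14% of the 3985 such genes on the array. Sizes differed: Psmd11, a lid subunit, changed by 0.39 ± 0.06 on the probe set used and by 0.74 ± 0.06 on another. For Psme4 the probe set used changed by 0.21 ± 0.14 without a call, a second by -0.58 ± 0.13 with a call and the third by 0.30 ± 0.14 without one, so no direction is given for this gene at 1 week. The 3 probe sets of Psmd14 changed by 0.90, 0.97 and 0.73 at 1 week, all called, and by 0.21, 0.31 and 0.21 at 4 weeks, where the adjusted p over all probe sets were 0.0492, 0.0793 and 0.241. Psmb8, Psmb9 and Psmb10 had 1 probe set each, so no second probe set measures their change.

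**Figure D5:**
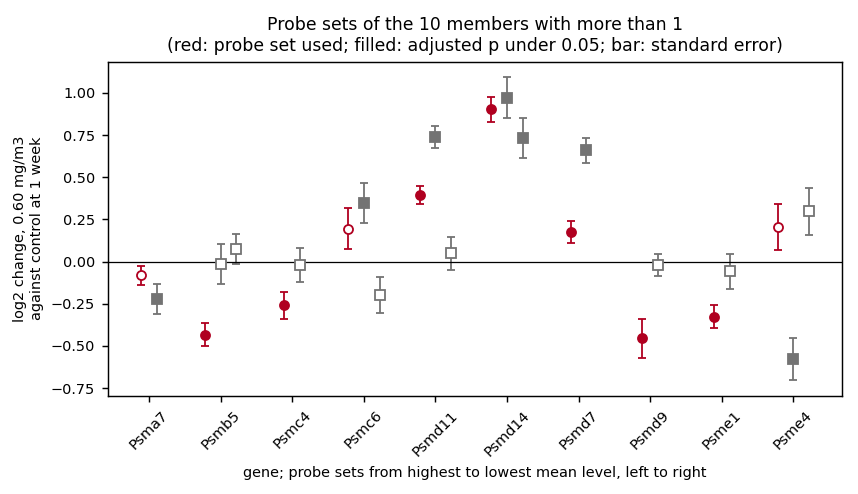
Log2 change with standard error at 0.60 mg/m3 after 1 week for each probe set of the 10 members with more than 1 (red: probe set used; filled: called). The 3 probe sets of Psmd14 lie between 0.73 and 0.97, and those of Psme4 on both sides of 0.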

How the data were processed

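Expression was measured on 50 arrays, 5 in each of 10 groups, and groups were taken from the labels. The deposited values are log2 intensities that the authors made with RMA in Partek, per the submitters' processing notes; software versions, scan dates and which arrays were normalized together: not given in the sources used here. They were used as deposited, with 31042 probe sets and array medians from 5.25 to 5.61. The number of arrays limits the precision. A p value sets a difference of group means against the spread between rats within groups. That spread is taken over all 10 groups unless the compared arrays were fitted alone. It was unequal: on the first principal component the SD ran from 1.10 (0.15 mg/m3, 4 weeks) to 26.5 (0.08 mg/m3, 1 week).

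Gene symbols came from the platform annotation, which can be old: 19063 probe sets had 1 symbol, 572 several and 11407 none. Only the first kind was used, with the brightest probe set per gene, and all 40 members matched the current rat gene table. Promoters came from RefSeq (GRCr8), which held 36 of the members.

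One mean per group was fitted to each of 13438 genes in limma 3.58.1 (R 4.3.3) with eBayes, two-sided, with Benjamini-Hochberg adjustment across every gene of a contrast. The fit was tested on simulated data for 0.60 mg/m3 against control at 4 weeks. Of 100 genes changed by 0.4, 55% were called, and of 100 changed by 0.8, 97%. Among the unchanged genes 5 were called. The changed genes were far fewer than the 2334 called in this comparison of the data, so the shares called may differ there.

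Members and gene lists were chosen with earlier results of these data known. Named with values were Psmb8 to Psmb10, their counterparts, the Psme genes, members without a subunit class, up to 3 called members per subunit class and up to 4 per pathway list with the largest change at 0.60 mg/m3 at each time. Psma3, Psmc6, Psmd11 and the calls at 0.04 mg/m3 after 1 week were added after their values were seen. The settings varied were weights per array, a filter that drops the dimmest 25% of genes, median centring, quantile normalization, an intensity trend, the mean of probe sets, a replicate block, the compared arrays alone, 4-week controls for 1-week arrays, and the omission of each array. A covariate for the differences among the 1-week arrays of the control and lowest-exposure groups was chosen after seeing the data.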

Additional observations from a re-analysis of the deposited data

Results flagged for a closer look

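Among 260 combinations of 26 named members and 10 groups, 16 held an array far from the other 4 of its group; chance alone places about 1 in 20 groups there. Psmb8 and Psmb9 in replicate 3 of the 1-week controls were high together, at 10.4 and 11.4, where the other arrays lay up to 10.1 and 11.1. Psmb9 was low in replicate 1 at 0.15 mg/m3 at 1 week (10.5) and in replicate 1 at 0.08 mg/m3 at 4 weeks (9.92). The latter array had a skeletal muscle marker level of 11.3. Psme1 was high in replicate 5 at 0.60 mg/m3 at 4 weeks (11.7), and Psmb7 low in replicate 1 at 0.04 mg/m3 at 4 weeks (7.98).

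At 1 week Psma4 was high in replicate 2 at 0.60 mg/m3 (9.88), Psmc1 high in replicate 3 at 0.04 mg/m3 (8.04) and Psmd12 low in replicate 1 at 0.08 mg/m3 (8.48). In replicate 1 of the 4-week controls Psmd1 was low (8.29) and Psme3ip1 high (8.24). Also at 4 weeks, Psmc2 was low in replicate 1 at 0.04 mg/m3 (10.9) and Psmd2 was high in replicate 4 at 0.08 mg/m3 (10.4). In replicate 1 at 0.15 mg/m3 Psmd2 (9.82) and Psmd6 (10.5) were low, and Psmd9 was high in replicate 3 at 0.60 mg/m3 (7.23).

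The change differed between 4 weeks and 1 week, by the test of that difference, for 10 members upward and 20 downward at 0.15 mg/m3 and for 9 upward and 21 downward at 0.60 mg/m3. These differences take in the gap between the 1-week and 4-week controls. At 0.60 mg/m3 the differences, 4 weeks minus 1 week, were 0.76 for Psmb8, 0.81 for Psmb9, 0.99 for Psmb10, 0.37 for Psmb5, 0.34 for Psmb7, 0.43 for Psme1, -1.03 for Psma5 and -1.51 for Psmd5. At 0.15 mg/m3 they were 0.52 for Psmb8, 0.60 for Psmb9, 1.09 for Psmb10, 0.50 for Psmb5, 0.47 for Psmb7, 0.24 for Psme1, -1.02 for Psma5 and -1.504 for Psmd5.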

How the results depend on the processing

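Counts are members called higher and lower against controls of the same time unless said otherwise, and the cause of a shift was not tested except where fewer arrays or genes enter by construction. Shares of all genes called under a setting are given only where stated, so a count alone does not set members apart from other genes. With 4-week controls for the 1-week arrays, 0.04 mg/m3 had 17 higher and 21 lower, 0.08 mg/m3 15 lower, 0.15 mg/m3 3 lower and 0.60 mg/m3 2 lower. With array weights, 1 week had 6 lower at 0.04 and 13 lower at 0.08 mg/m3, and 1 higher between 0.60 and 0.15 mg/m3; 4 weeks had 11 and 9 at 0.04, 4 and 8 at 0.08, 2 and 3 at 0.15, and 7 and 5 at 0.60 mg/m3. Median centring gave at 4 weeks 0 and 5 at 0.04, 3 lower at 0.08 and 3 lower at 0.60 mg/m3, where its split of members moved from 3 and 1 to 2 and 3 and the share of higher calls over all genes from 54.5% to 40.6%, at 0.04 mg/m3 from 64.2% to 38.6% and at 0.08 mg/m3 from 66.4% to 39.2%. Quantile normalization gave 4 and 5 at 0.04 mg/m3 at 1 week, and 2 lower at 0.60 mg/m3 at 4 weeks. A fit to the compared arrays alone gave at 1 week 3 and 1 at 0.04 and 2 lower at 0.08 mg/m3, and at 4 weeks 6 and 6 at 0.04, 2 lower at 0.08, 1 and 1 at 0.15, and 5 and 2 at 0.60 mg/m3. Without the dimmest 25% of genes, and with an intensity trend, 4 were lower at 0.04 mg/m3 at 1 week. The mean of probe sets gave 4 lower at 0.08 mg/m3 at 1 week and 6 with a higher change at 4 weeks at 0.15 mg/m3. The covariate for differences among the 1-week control and 0.04 mg/m3 arrays, chosen after seeing the data, gave at 1 week 1 lower at 0.04, 2 at 0.08, 4 at 0.15 and 1 at 0.60 mg/m3; at 4 weeks 0 and 1 at 0.04 and 3 lower at 0.60 mg/m3; 2 and 5 with a higher change at 4 weeks at 0.15 and 0.60 mg/m3; and 10 and 4 between the controls. At 1 week it turned the sign of Psmb4, to 0.011 at 0.15 and 0.0274 at 0.60 mg/m3, and at 0.60 mg/m3 of Psmd9 (0.11) and Psme3ip1 (0.0656). It also turned the time difference of Psmd9 (-0.000204 at 0.15, -0.13 at 0.60 mg/m3) and of Psmb7 (-0.0235 at 0.60 mg/m3), and Psme4 between controls (-0.0144).

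Omission of 1 array at a time gave at 1 week 2 to 7 higher and 0 to 6 lower at 0.04 mg/m3 and 4 to 9 lower at 0.08 mg/m3; at 4 weeks 0 to 2 higher and 0 to 3 lower at 0.04, 0 to 1 and 0 to 2 at 0.08, and 2 to 4 and 1 to 2 at 0.60 mg/m3; and 0 to 3 higher between 0.60 and 0.15 mg/m3 at 4 weeks. At 1 week 0.04 mg/m3 had 4 higher without control replicate 1 or its own replicate 5 and 2 without its own replicate 4, and each of the 10 omissions moved its 2 lower calls, to between 0 and 6. At 1 week 0.08 mg/m3 had 4 lower without its replicate 3. At 4 weeks 0.04 mg/m3 had 0 higher without control replicate 2, 4 or 5 or its own replicate 3 or 4, 1 without its own replicate 5, 0 lower without control replicate 2 or its own replicate 3 or 4, and 1 lower without control replicate 3 or its own replicate 5. At 4 weeks 0.08 mg/m3 had 1 higher without its replicate 1, 0 lower without control replicate 2 or 3 or its own replicate 4, and 2 lower without its own replicate 5. At 4 weeks 0.60 mg/m3 had 2 lower without its replicate 5. Between 0.60 and 0.15 mg/m3 at 4 weeks 0 were higher without replicate 2, 3 or 5 at 0.60 or replicate 1, 4 or 5 at 0.15 mg/m3, and 1 without replicate 1 at 0.60 mg/m3. The replicate numbers do not pair rats: arrays of different groups with the same number had a mean correlation of -0.0014 (-0.52 to 0.61, n = 225), and with different numbers 0.00097 (-0.64 to 0.57, n = 900). With the replicate block 10 members were lower and 21 higher at 0.60 mg/m3 at 1 week, and 1 lower and 3 higher at 4 weeks; no count moved by over 1.5 times, and Psmb4, Psme3ip1 and Psmc3ip lost 1 call each.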
